A study of Homo sapiens with 15 samples.

Results

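The contacts that H3K27ac and H3K4me3 HiChIP recorded in LNCaP cells after 16 h of androgen were set side by side, loop by loop and promoter by promoter. LNCaP is an established prostate cancer line that expresses the androgen receptor. The cells were kept for 3 days in phenol red-free medium with charcoal-stripped serum, which removes steroid hormones, and were then given 10 nM dihydrotestosterone (DHT) for 16 h. The same line at 0 m (vehicle) and after 30 m, 4 h and 72 h of the same dose was used only to place the 16 h values. Every anchor pair listed for the 16 h libraries was taken, once each: 505995 pairs, all of those in the series, of which 227504 had been called as a loop only in the H3K27ac set, 209669 only in the H3K4me3 set and 68822 in both. The H3K27ac samples are labelled as 2 replicates and H3K4me3 as 1, but 1 value per loop, mark and time was deposited, so no comparison had replicates and none was tested; intervals below cover counting error of read pairs only.

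The deposited contacts were whole read pairs scaled within each mark, so the read pairs could be recovered. At 16 h the loops held 4066305 H3K27ac read pairs and 4115072 H3K4me3 read pairs, and the median loop held 3 in each mark. No H3K27ac pair was seen at 18.5% of the loops and no H3K4me3 pair at 16.4%. The libraries of the other times held 2475168 to 4308555 read pairs for H3K27ac and 2153262 to 10675614 for H3K4me3, the deepest being H3K4me3 at 4 h. Since the marks were scaled apart, contact was ranked within each mark, and a difference between marks is given in percentile points (the H3K27ac percentile minus the H3K4me3 percentile) or as the log2 ratio of a feature's shares of the read pairs of each mark.

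HiChIP joins the ends of DNA that lie close together in the nucleus and then enriches for pairs that carry a chosen histone mark. H3K27ac is laid down by the acetyltransferases p300 and CBP at active enhancers and active promoters. H3K4me3 is laid down by SET1 and MLL complexes, mainly at promoters rich in CG dinucleotides, where a CXXC-domain subunit reads unmethylated CG. In luminal prostate cells the androgen receptor binds mostly at enhancers, beside the pioneer factor FOXA1, and its target promoters are reached through loops.

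The marks differed in the kind of loop that carried their contact. Loops with no protein-coding promoter at either anchor (other-other; a promoter is 2500 bp on either side of a gene start) took 53.7% of H3K27ac read pairs and 22.9% of H3K4me3 read pairs, a log2 share ratio of 1.23 with an interval of 1.23 to 1.23. Promoter-other loops took 37.1% against 60.4% (log2 -0.70) and promoter-promoter loops 9.22% against 16.7% (log2 -0.86). The loop sets had been called on peaks of each mark, so part of this contrast is built into them. Among the loops that both sets list, the log2 ratio of other-other loops was 1.01, in the H3K27ac-only set 1.72, and in the H3K4me3-only set -0.23, where the direction was the opposite.

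**Figure D1:**
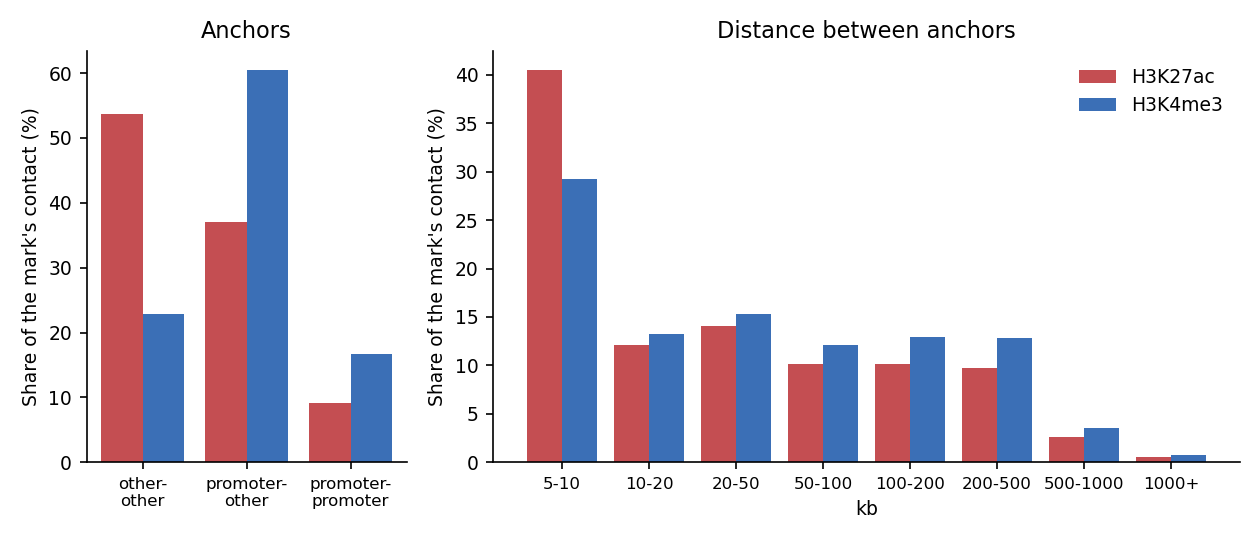
Share of the 16 h read pairs of each mark (percent, y axis) by anchor class and by loop length (x axis), H3K27ac beside H3K4me3, 1 deposited value per bar. H3K27ac has its largest class in loops without a coding promoter (53.7%), H3K4me3 in promoter-other loops (60.4%), and loops of 5 to 10 kb hold 40.5% against 29.2%.

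H3K27ac contact was also nearer. Loops of 5 to 10 kb held 40.5% of H3K27ac and 29.2% of H3K4me3 read pairs (log2 0.47), and every longer class leaned to H3K4me3, from -0.12 at 10 to 20 kb to -0.46 at 1 Mb and over. Weighted by contact, the median loop was 15000 bp long for H3K27ac and 30000 bp for H3K4me3. The order was the same within each class of anchors, at 10000 and 20000 bp for other-other, 25000 and 35000 bp for promoter-other and 20000 and 25000 bp for promoter-promoter loops. As a description across loops, which share libraries and are not independent, contact in the 2 marks correlated with a Spearman rho of 0.344 over 505995 loops, of 0.360 over other-other, 0.526 over promoter-other and 0.683 over promoter-promoter loops.

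Promoters were compared by the summed contact of their loops. Of 20090 protein-coding promoters, 16076 had a loop and 11039 held at least 100 read pairs in both marks together; the other 5037 with loops were left out. H3K27ac and H3K4me3 contact correlated with a rho of 0.714 over the 11039 promoters. A promoter was called H3K27ac-rich where its H3K27ac percentile was at least 20 points higher and the 95% counting interval of its log2 share ratio lay above 0, and H3K4me3-rich in the reverse case. By this rule 1004 promoters (9.1%) were H3K27ac-rich, 1757 (15.9%) were H3K4me3-rich and 8278 were neither. The counts are not evenly matched, because the median promoter had a log2 share ratio of -1.06 and only 1627 (14.7%) lay above 0: on rank difference alone 1799 promoters reached 20 points and 1757 reached -20 points.

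**Figure D2:**
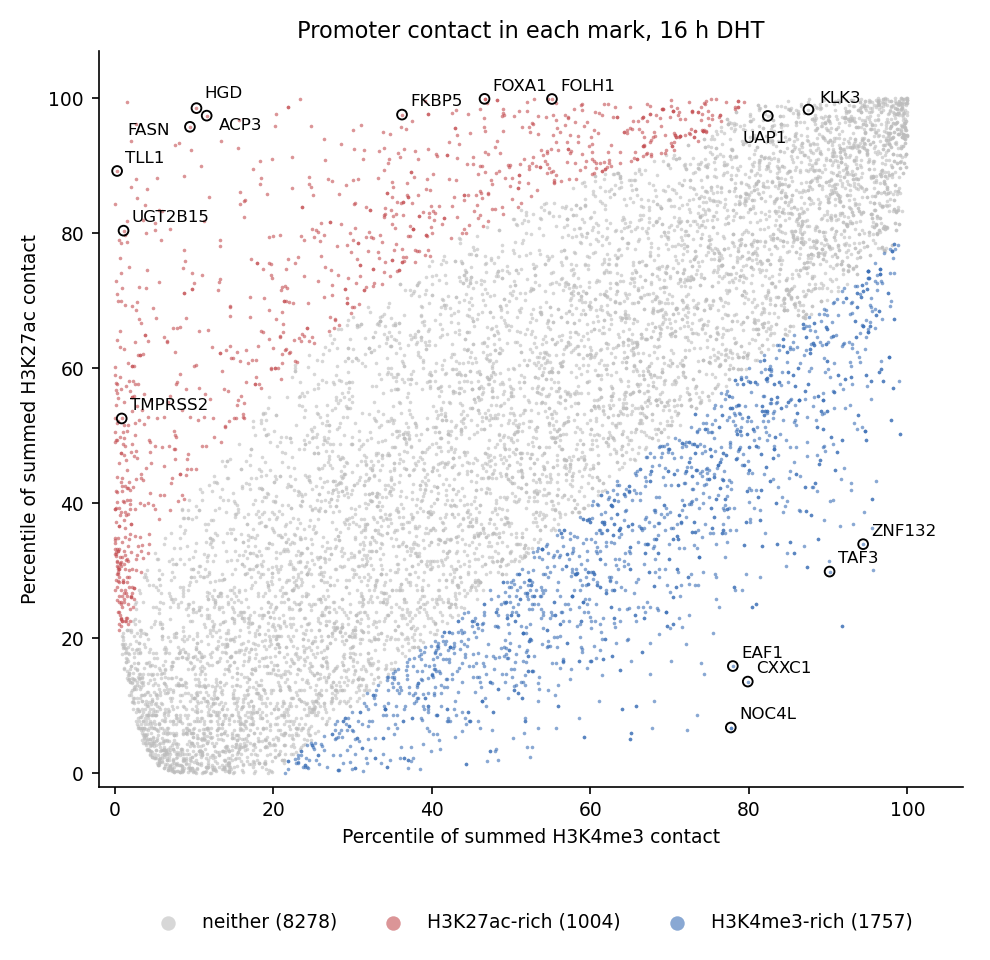
Percentile of summed H3K4me3 contact (x axis) against that of summed H3K27ac contact (y axis) for the 11039 protein-coding promoters at 16 h, 1 point per promoter, coloured by call, with named genes labelled. H3K27ac-rich promoters (1004) lie to the upper left, H3K4me3-rich promoters (1757) to the lower right, and KLK3 lies near the upper right corner at 87.5 and 98.3.

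The calls depend on where a gene is taken to start. The annotated start lay over 2500 bp from the start of the gene's canonical transcript for 17.1% of H3K27ac-rich, 6.09% of H3K4me3-rich and 9.13% of all promoters kept. With canonical starts 863 of the 1004 and 1638 of the 1757 had the same call, with a window of 7500 bp 872 and 1629 had it, and under both 770 and 1526 had it. For genes named below, a call that does not hold under either definition is said so. The H3K27ac-rich promoters had fewer and shorter loops (medians of 23 loops and 165000 bp) than the H3K4me3-rich promoters (35 loops and 225000 bp), with 29 loops and 195000 bp over all. Their strongest loop also held more of their H3K27ac contact, a median of 39.8% against 26.9% at H3K4me3-rich promoters and 30.1% over all. The calls were made from the same contact, so this only describes the groups. Of H3K4me3 contact the strongest loop held 29.8%, 27.9% and 27.6% in the same order.

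Among the most H3K27ac-rich promoters were those of HGD and ACP3. HGD, the homogentisate dioxygenase of tyrosine breakdown, held 1046 H3K27ac and 103 H3K4me3 read pairs (normalised contact 222 and 19.9). Its percentiles were 98.5 and 10.3, 88.2 points apart, with a log2 share ratio of 3.36. ACP3, prostatic acid phosphatase and a classic secretory product of the luminal cell, held 871 and 109 read pairs (contact 184.9 and 21.1), and its percentiles of 97.4 and 11.6 lay 85.8 points apart (log2 3.02, 2.73 to 3.32). Both promoters thus ranked among the strongest acetylated contacts and in the low range of H3K4me3.

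TLL1, DSC3 and TNFSF15 had the same pattern. TLL1, a tolloid-family metalloprotease, held 490 and 22 read pairs, 88.9 points apart (log2 4.49). DSC3, a desmosomal cadherin, was 85.3 points apart with 594 and 91 read pairs, and TNFSF15, a cytokine of the TNF family, 85.3 points with 465 and 61. All 5 promoters were called under both other definitions of the promoter.

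The values of GDF15, S100A11, DMXL1 and FASN, also at the top of the ranking, depended on the definition. GDF15, a stress-induced cytokine, had the highest rank difference of all (97.8 points, 1410 and 46 read pairs), but 98.4% of its H3K27ac pairs lay in a single loop and its canonical start gave 15.8 points and no call. S100A11, a calcium-binding protein, reached 91.6 points with 621 and 55 read pairs, and its canonical start held too few pairs to be ranked. DMXL1, a regulator of the vacuolar proton pump, was at 85.3 points, but at 4.81 at its canonical start. FASN, fatty acid synthase, reached 86.2 points with 720 and 99 read pairs, of which its strongest of 5 loops held 92.4% of the H3K27ac pairs. Within 7500 bp of its start the difference at FASN was 39.6 points, still H3K27ac-rich, and with average in place of summed contact it was 16.6 points.

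Some of the most H3K4me3-rich promoters were shared by neighbouring genes. The promoter shared by DDX51, an RNA helicase of ribosome assembly, and NOC4L, a nucleolar factor, held 37 H3K27ac and 603 H3K4me3 read pairs (contact 7.86 and 116.6). It ranked at percentiles 6.74 and 77.7, a difference of -71.0 points (-78.3 to -61.7) and a log2 share ratio of -4.01 (-4.53 to -3.53). The promoter shared by GNPTG, a subunit of the enzyme that tags lysosomal proteins, and TSR3, which modifies ribosomal RNA, held 74 and 884 read pairs and differed by -70.0 points. C8orf33 followed with 36 and 532 read pairs (-65.8 points), and FAT1, an atypical cadherin, with 41 and 546 (-64.9 points).

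CXXC1, the subunit that brings the SET1 complex to CG-rich DNA, held 53 and 632 read pairs (-66.3 points). TAF3, the TFIID subunit that reads H3K4me3, held 94 and 835 read pairs (-60.3 points). EAF1, a partner of the ELL elongation factors, held 59 and 607 (-62.1 points). The zinc finger genes ZNF671 (37 and 486 read pairs, -61.1 points) and ZNF132 (106 and 1000 read pairs, contact 22.5 and 193.3, -60.5 points) completed the 10 loci with PCP2, a Purkinje cell protein gene, at 95 and 1075 read pairs and -65.7 points. With a window of 7500 bp PCP2 came to -22.2 points and was still H3K4me3-rich, while with average in place of summed contact PCP2 stood at -4.93, TAF3 at -17.2 and FAT1 at -19.6 points, inside the threshold.

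The reference sequence just upstream of promoters at either end is printed as examples, chosen after their values were seen, of how far CG content can differ. Opposite cases occur at both ends, with 41 CG at FASN and 25 at DSC3, both H3K27ac-rich, and 1 at the H3K4me3-rich PCP2. Each run is the 250 bases before the annotated start, read 5′ to 3′ on the gene's strand in GRCh37, in lower case with CG dinucleotides in capitals. The H3K27ac-rich example is UGT2B15 (chr4:69536371-69536620, minus strand), and the H3K4me3-rich ones are ZNF132 (chr19:58951521-58951770, minus strand), ZNF671 (chr19:58238993-58239242, minus strand) and TAF3 (chr10:7860210-7860459, plus strand).
UGT2B15: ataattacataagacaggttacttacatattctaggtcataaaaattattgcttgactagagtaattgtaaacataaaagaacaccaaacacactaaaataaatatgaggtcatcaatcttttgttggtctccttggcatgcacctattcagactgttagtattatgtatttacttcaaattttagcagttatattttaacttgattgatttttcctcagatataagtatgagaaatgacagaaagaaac
ZNF132: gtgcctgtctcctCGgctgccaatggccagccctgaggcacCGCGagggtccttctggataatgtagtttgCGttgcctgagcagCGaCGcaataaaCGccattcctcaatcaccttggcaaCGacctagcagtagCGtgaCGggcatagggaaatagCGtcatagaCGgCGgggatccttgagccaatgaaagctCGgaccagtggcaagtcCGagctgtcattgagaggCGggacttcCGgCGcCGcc
ZNF671: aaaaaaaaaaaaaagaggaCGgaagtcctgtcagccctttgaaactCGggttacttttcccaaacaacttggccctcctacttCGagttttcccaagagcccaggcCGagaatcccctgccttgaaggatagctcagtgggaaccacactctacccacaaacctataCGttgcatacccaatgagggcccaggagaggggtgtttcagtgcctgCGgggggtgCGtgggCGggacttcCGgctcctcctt
TAF3: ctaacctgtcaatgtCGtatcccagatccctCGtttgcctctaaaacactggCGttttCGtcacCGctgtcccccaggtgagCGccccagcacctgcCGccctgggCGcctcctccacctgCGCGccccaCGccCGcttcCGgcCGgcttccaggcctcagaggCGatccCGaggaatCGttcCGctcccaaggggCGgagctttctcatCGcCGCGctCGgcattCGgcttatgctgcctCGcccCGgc
CG occurred 0 times at UGT2B15, against 19 at ZNF132, 9 at ZNF671 and 26 at TAF3.

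These examples followed the wider pattern at the low end of CG. The upstream 250 bases held fewer than 5 CG at 22.6% of H3K27ac-rich promoters (227) and at 4.44% of H3K4me3-rich promoters (78), beside 8.71% of all promoters kept and 24.9% of all 20090 promoters. The medians were 14 CG for H3K27ac-rich, 19 for H3K4me3-rich and 19 for all promoters kept. With canonical starts the medians came to 21, 22 and 22, while the shares under 5 CG were 16.4%, 1.28% and 4.20%. Read the other way, of the 961 promoters with 0 to 4 CG 23.6% were H3K27ac-rich and 8.12% H3K4me3-rich, and of the 1211 with 5 to 9 CG 12.9% and 13.3%. The shares were 6.49% and 18.0% for 10 to 19 CG (3561), 7.35% and 17.9% for 20 to 29 (3386) and 7.34% and 14.0% for at least 30 (1920). The H3K4me3-rich share was thus highest at 10 to 29 CG and lower on either side.

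Short motifs were counted on both strands of the same windows. TATAAA, the core of the TATA box, was found in 10.5% of H3K27ac-rich and 4.04% of H3K4me3-rich promoters, with 5.82% of those kept and 10.1% of all promoters. The forkhead words TGTTTAC (2.79% and 1.31%, 1.87% of those kept and 2.45% of all promoters) and TGTTTGC (4.98% and 2.05%, 2.39% of those kept and 2.80% of all promoters) followed the same order. The UGT2B15 window holds TGTTTAC. With canonical starts TGTTTAC was found in 2.66% and 1.39% (1.60% of those kept) and TGTTTGC in 3.44% and 2.05% (1.91% of those kept). The full palindrome of the androgen response element was found in 0 promoters of either kind and in 2 of all 20090. These words are richer in A and T than a CG-rich window, and whether they differ beyond base composition was not tested.

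Gene lists were read by their calls and their median rank difference, beside a median of -1.63 points over all promoters. The lists were chosen with results of these data known, so they are descriptions. Promoters were kept on the read pairs of both marks together, so some HOX and androgen-repressed genes were kept only through their H3K27ac pairs. Lists leaning to H3K27ac were the androgen-repressed genes (median 47.9 points, 4 promoters), the HOX cluster genes (32.5), the prostate secretory and surface markers (19.3, but 1.85 with average contact), the immediate early genes (18.7) and the canonical androgen receptor targets (12.1). Those leaning to H3K4me3 were the zinc finger genes of chromosome 19 (-14.1), the subunits of the mitochondrial respiratory chain (-12.6), the cytosolic ribosomal proteins (-7.08) and the genes of sterol and fatty acid synthesis (-6.49). The remaining lists of processes stood nearer to the median of all promoters, with 0.18 points for the secretory pathway and unfolded protein response (0 H3K27ac-rich and 1 H3K4me3-rich of 21) and -3.14 for the cell cycle and DNA replication (1 and 2 of 21). Genes grouped by when their nascent RNA peaked, a grouping the study made on these cells, had medians of -8.91 points for 30 m (2 and 10 called of 39), -4.30 for 4 h (5 and 11 of 68), -2.51 for 16 h (14 and 26 of 144) and -0.42 for 72 h (9 and 6 of 101). Beside the 9.1% and 15.9% of all promoters, the H3K4me3-rich share was 25.6% for the 30 m genes, 16.2% and 18.1% for the 4 h and 16 h genes and 5.94% for the 72 h genes, while the H3K27ac-rich share ran from 5.13% to 9.72%.

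**Figure D3:**
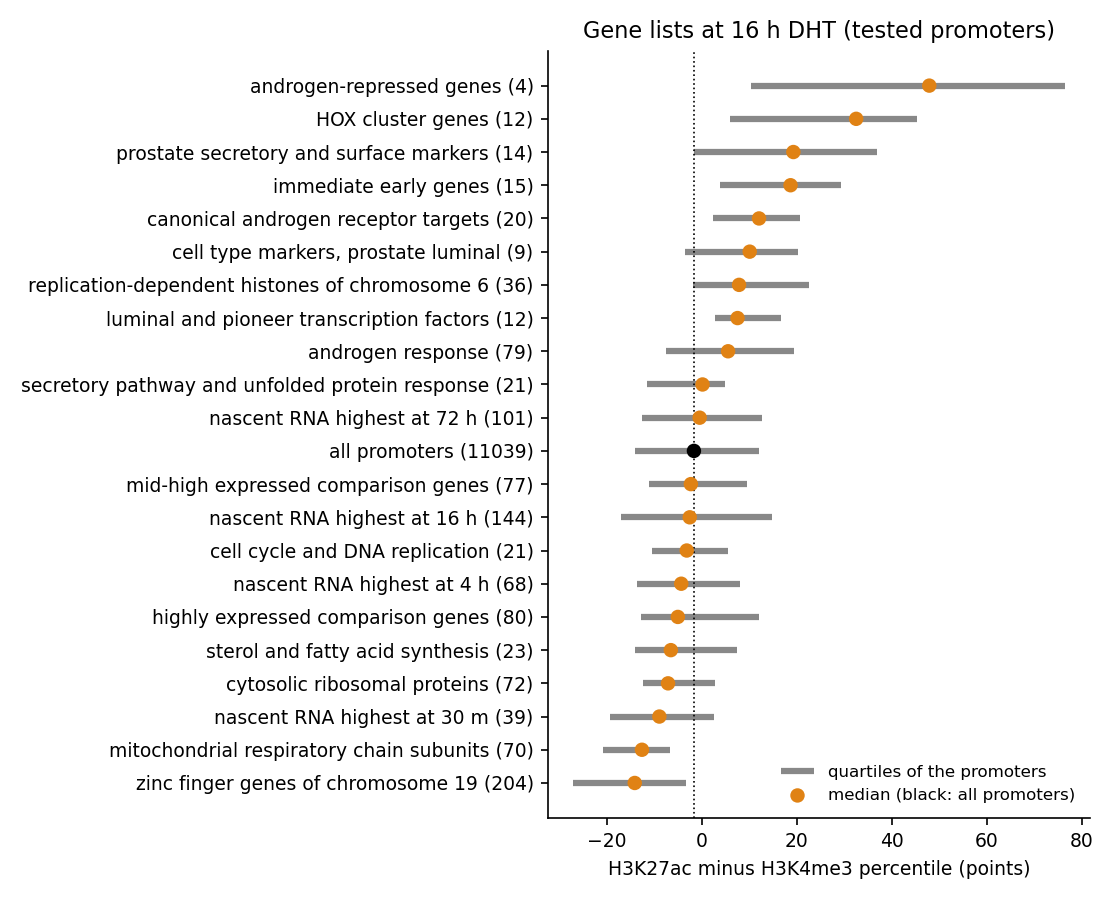
Rank difference at 16 h (H3K27ac percentile minus H3K4me3 percentile, points, x axis) for each gene list (y axis, number of promoters kept in brackets), with the median as a dot, the quartiles as a bar and a dotted line at the median of all promoters (-1.63). The androgen-repressed genes (47.9), HOX genes (32.5) and prostate markers (19.3) lie to the right and the chromosome 19 zinc finger genes (-14.1) to the left.

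Of 27 canonical androgen receptor targets 20 were kept; 16 had a positive rank difference, 3 were called H3K27ac-rich (15.0%, against 9.1% of all) and 2 H3K4me3-rich. FKBP5, a cochaperone of steroid receptors, held 895 and 247 read pairs and was 61.3 points apart. TMPRSS2, the serine protease whose promoter drives ERG in fusion-positive tumours, held 169 and 35 (51.6 points), and CAMKK2, a kinase upstream of AMPK, 446 and 335 (37.04 points). None of the 3 calls was seen with canonical starts, where FKBP5 was at 26.96, TMPRSS2 at -9.95 and CAMKK2 at 27.7 points. On the other side EAF2, an elongation factor partner, held 151 and 617 read pairs at a promoter shared with IQCB1 (-30.8 points, called under every definition), and NCAPD3, a condensin subunit, 73 and 371 (-33.3 points, not called at its canonical start).

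The 79 kept of the 89 androgen response genes had a median of 5.56 points, with 8 H3K27ac-rich (10.1%, near the 9.1% of all) and 5 H3K4me3-rich (6.33%). Its highly expressed comparison genes (80 kept) had a median of -5.02 points with 7 and 13 calls, and its mid-high expressed genes (77 kept) -2.27 points with 7 and 14. The androgen response genes are members of a public hallmark set with an active promoter in these cells, and the comparison genes were drawn by their RNA level in these cells. Among the androgen response genes, B4GALT1, a galactosyltransferase, was H3K27ac-rich (743 and 391 read pairs, 39.3 points, but 7.44 with loops of at least 20 kb) and PIAS1, a SUMO ligase that binds the receptor, H3K4me3-rich (132 and 596 read pairs, -34.8 points).

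KLK3, UAP1, ABCC4 and KLK2, unlike FKBP5 and TMPRSS2, were not called in either direction. KLK3, which encodes prostate-specific antigen, held 1002 H3K27ac and 768 H3K4me3 read pairs (contact 212.7 and 148.5), at percentiles 98.3 and 87.5 and 10.8 points apart (8.13 to 13.9). UAP1, an enzyme of UDP-N-acetylglucosamine synthesis, held 866 and 672 read pairs (percentiles 97.3 and 82.4, 15.0 points apart). Both ranked high in either mark, which leaves little room for a higher H3K27ac rank. Their log2 share ratios were 0.40 and 0.38, beside a median of -1.06 over all promoters. The KLK3 difference depends on the loops taken: it was 65.2 points with the H3K27ac set only, 28.3 with loops of 1 gene only and 1.09 with average contact.

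ABCC4, an efflux transporter, held 359 and 418 read pairs at percentiles 80.9 and 60.3, and its 20.6 points passed the threshold while its log2 share ratio of -0.20 (-0.41 to 0.00) did not. KLK2, the kallikrein beside KLK3, held 165 and 317 read pairs at its annotated start (percentiles 51.5 and 47.4, 4.13 points). That start lies 11871 bp from the start of its canonical transcript, where the difference was 67.1 points and the call H3K27ac-rich, so no direction can be given for KLK2.

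Single loops showed that the balance was uneven within a promoter. The KLK3 promoter had 13 loops. The loop to the anchor at -5.67 kb (upstream; chr19:51352001-51353000), on the side of its upstream enhancer, held 452 H3K27ac and 130 H3K4me3 read pairs, 45.1% and 16.9% of the promoter's pairs, with a log2 share ratio of 1.82 (1.53 to 2.11). The loop to the anchor 4.33 kb downstream, inside the gene and also within 2500 bp of the annotated KLK2 start, held 140 and 278 read pairs, 14.0% and 36.2% of the promoter's pairs, with a ratio of -0.97 (-1.28 to -0.67). The strongest acetylated contact of the KLK3 promoter was thus upstream of it and the strongest H3K4me3 contact at the anchor that lies both within KLK3 and at the annotated KLK2 start.

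The farther KLK3 loops did not divide by side. The loop at -10.7 kb held 126 and 40 read pairs, and the loop at 14.3 kb downstream 120 and 60. At 54.3 kb downstream, near KLK4, the order turned to 22 and 86 read pairs, and at -50.7 kb to 20 and 60. Between 0 m and 16 h the loop at -5.67 kb went from 104 to 452 H3K27ac and from 36 to 130 H3K4me3 read pairs (contact 30.6 to 96.0, and 10.2 to 25.1). The loop to that shared anchor went from 108 to 140 H3K27ac and from 41 to 278 H3K4me3 read pairs (contact 31.7 to 29.7, and 11.6 to 53.7).

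**Figure D4:**
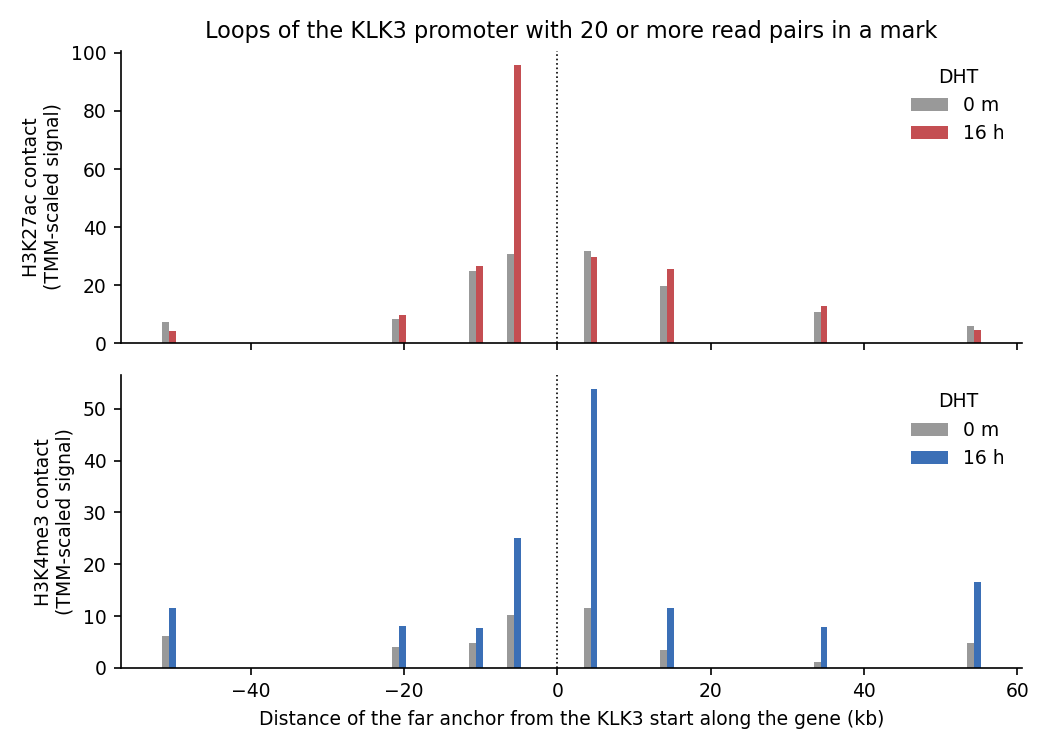
Normalised contact of the loops of the KLK3 promoter (y axis) by distance of the far anchor from the gene start (kb, x axis, downstream positive), for each mark at 0 m and 16 h, 1 deposited value per bar. The tallest H3K27ac bar at 16 h stands at -5.67 kb (96.0) and the tallest H3K4me3 bar 4.33 kb downstream (53.7), at the anchor that also holds the annotated KLK2 start.

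UAP1 had 1 loop that held most of its acetylated contact. The loop to the anchor 5.99 kb downstream held 623 and 331 read pairs, 71.9% and 49.3% of the promoter's pairs (log2 0.93). Over the 10361 promoters whose strongest loop held at least 10 read pairs in each mark, the same loop was strongest in both at 7553 (72.9%).

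Of the luminal and pioneer factors, FOXA1 and ELF3 were called, both H3K27ac-rich. FOXA1, the pioneer factor, held 2050 and 312 read pairs at a promoter region shared with TTC6 (53.2 points, log2 2.73, 2.56 to 2.91), and was called under every definition. ELF3, an epithelial ETS factor, reached 57.9 points (449 and 203 read pairs), but 15.7 at its canonical start. The other luminal and pioneer factors named on the list were not called: HOXB13 stood at 10.1 points (1670 and 819 read pairs), GATA2 at 15.6 (910 and 664) and EHF at 3.91 (1153 and 1030). In all 2 of 12 were H3K27ac-rich (16.7%, against 9.1% of all) and 0 H3K4me3-rich (against 15.9%). The list ranked high in both marks, with median percentiles of 97.5 and 85.3, which leaves little room for a higher H3K27ac rank. Its median log2 share ratio was 0.33, beside -1.06 over all promoters.

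Of the 14 prostate secretory and surface markers kept, 5 were H3K27ac-rich (35.7%, against 9.1% of all) and 1 H3K4me3-rich (7.14%, against 15.9%). Beside ACP3, FOLH1, which encodes prostate-specific membrane antigen, held 1985 and 377 read pairs (44.7 points). STEAP1, a surface metalloreductase, held 131 and 56 (40.1 points), and EPCAM, an epithelial adhesion molecule, 366 and 78 (76.4 points, not called at its canonical start). The H3K4me3-rich member was TMEFF2, a transmembrane protein of prostate and brain, with 34 and 271 read pairs (-34.4 points). As a check of the label, all 9 luminal markers had promoters with enough contact. Of 12 markers of other cell types, 11 were among the promoters used, and only COL1A1 (140 and 97 read pairs) and CD79A (18 and 116) had enough.

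The androgen-repressed genes UGT2B15, an androgen-conjugating enzyme, and BCHE, butyrylcholinesterase, were H3K27ac-rich at 79.2 points (351 and 40 read pairs) and 75.7 points (311 and 30). They were 2 of the 4 kept from a list of 7, where 9.1% of all promoters were called. Both reached the minimum of 100 read pairs only through H3K27ac, so the share and the list median rest in part on members admitted by that mark. UGT2B15 has close paralogs beside it, and pairs that could not be placed uniquely were dropped by the authors, so its contact is uncertain. Immediate early genes, which respond to growth signals within minutes, had 4 of 15 H3K27ac-rich (26.7%, against 9.1% of all) and 0 H3K4me3-rich (against 15.9%). NR4A1, an orphan nuclear receptor, was at 47.0 points (260 and 166 read pairs, not called at its canonical start), JUND, an AP-1 subunit, at 33.9 (491 and 378) and FOS at 28.2 (100 and 69).

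Of the 23 genes of sterol and fatty acid synthesis 3 were H3K27ac-rich (13.0%, against 9.1% of all) and 5 H3K4me3-rich (21.7%, against 15.9%), shares near the background. SREBF1 and SREBF2, the transcription factors that switch on the pathway, were H3K27ac-rich with 1226 and 406 read pairs (40.2 points) and 772 and 586 (20.1 points, at the threshold). Of the enzymes of the mevalonate pathway, HMGCS1 held 67 and 344 read pairs (-32.1 points), MVD 196 and 835 (-31.6 points) and MVK 135 and 566 (-31.5 points, at a promoter shared with MMAB). All 3 were H3K4me3-rich.

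Respiratory chain genes leaned to H3K4me3. Of 70 respiratory chain subunits 20 were H3K4me3-rich (28.6%, against 15.9% of all) and 1 H3K27ac-rich. NDUFB5, a subunit of complex I, held 79 and 504 read pairs (-45.7 points), SDHD, the membrane anchor of succinate dehydrogenase, 162 and 1016 (-43.9 points), and UQCRFS1, the Rieske protein, 106 and 578 (-42.0 points). The exception was NDUFB4 with 887 and 430 read pairs (36.0 points). Of 72 cytosolic ribosomal protein genes 7 were H3K4me3-rich (9.72%, below the background) and 0 H3K27ac-rich, with RPL14 lowest at 115 and 492 read pairs (-31.4 points). Their median was -7.08 points at 16 h and lay between -1.84 and 1.30 points at the other times.

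The zinc finger genes of chromosome 19, most of them KRAB repressors in clusters, had the largest number of calls. Of 204 promoters kept at 197 loci, 79 were H3K4me3-rich (38.7%, against 15.9% of all) and 2 H3K27ac-rich (0.980%, against 9.1%), and 72 of the 79 were called under all 3 definitions of the promoter. ZNF350 was among the lowest with 98 and 833 read pairs (-58.8 points). The exceptions were ZNF91, a repressor of retroelements, at 678 and 474 read pairs (28.4 points) and ZNF787 at 1250 and 559 (24.6 points). These genes are near-copies of each other, and reads that could not be placed uniquely were dropped by the authors' pipeline.

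HOX genes leaned the other way. Of the 12 kept 7 were H3K27ac-rich (58.3%, against 9.1% of all) and 0 H3K4me3-rich; they lie side by side in clusters and can share loops. HOXA9 held 401 and 71 read pairs (80.3 points, too few pairs at its canonical start), HOXA6 276 and 35 (70.9 points) and HOXA10 149 and 31 (46.6 points). The 36 histone genes of chromosome 6 lie at 24 loci, and 5 genes were H3K27ac-rich (13.9%, against 9.1% of all) and 0 H3K4me3-rich (against 15.9%), H3C1 and H4C1 as 1 locus at 138 and 93 read pairs (36.0 points) and H4C5 at 518 and 448 (26.7 points, not called with a window of 7500 bp and -3.72 points with loops of 1 gene only). Their median was 7.88 points, but 0.69 with a window of 7500 bp, where 3 of 43 were called. Histone genes are also near-copies.

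Among single loops, 85962 held at least 20 read pairs in both marks together. By the same rule 22197 (25.8%) were H3K27ac-rich and 25127 (29.2%) H3K4me3-rich. Of the 33703 other-other loops 57.1% were H3K27ac-rich and 10.0% H3K4me3-rich, of the 41478 promoter-other loops 6.42% and 41.3%, and of the 10781 promoter-promoter loops 2.60% and 42.9%. The median length was 10000 bp for H3K27ac-rich and 35000 bp for H3K4me3-rich loops, an order that did not hold at promoters: it was 45000 and 35000 bp among promoter-other and 60000 and 50000 bp among promoter-promoter loops. Loops from a promoter that carried almost only H3K27ac thus belonged to a minority.

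Of that minority, a loop of 10 kb at TFF1, a trefoil peptide of secretory epithelium, held 104 H3K27ac and 3 H3K4me3 read pairs (log2 5.13, 3.55 to 7.43). A loop of 215 kb at TLL1 held 88 and 2 (log2 5.48, 3.58 to 8.55, and 4.89 with a floor of 3 read pairs). A loop of 105 kb at ZMYND8, a chromatin reader, held 80 and 2, and a 5 kb loop at ESPNL, an espin-like actin bundler, 201 and 5. The loop of 10 kb at BMP5, a bone morphogenetic protein, held 65 and 0. With the same floor its log2 ratio was 4.45, and its lower counting limit without the floor was 4.12. At TFF1 the promoter as a whole held 335 and 28 read pairs (78.3 points).

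At the other end, loops that carried almost only H3K4me3 started at the promoter shared by ALKBH4 and LRWD1 and at RPS6KL1 (5 kb, 3 and 109 read pairs). The ALKBH4 and LRWD1 loop spanned 15 kb and held 1 and 82 read pairs (log2 -6.34, -11.7 to -3.82, and -4.76 with a floor of 3 read pairs). ZNF554 had such a loop with 1 and 77 read pairs. A loop of 10 kb between the promoters of the zinc finger genes ZNF418 and ZNF256 held 3 and 104 read pairs (log2 -5.10, -7.40 to -3.51). SMPD3, a neutral sphingomyelinase, had a loop of 5 kb with 4 and 126 read pairs, and ICMT, the methyltransferase of prenylated proteins, one with 2 and 75.

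Summed over all loops of an anchor, 35119 anchors held enough pairs, and 10638 (30.3%) were H3K27ac-rich and 11004 (31.3%) H3K4me3-rich. At coding promoters (10389 anchors) the shares were 3.78% and 48.7%, and away from them (24730 anchors) 41.4% and 24.0%. Among the anchors away from coding promoters, the start of a long non-coding RNA lay at 5.00% of H3K27ac-rich and 10.6% of H3K4me3-rich ones. It lay at 9.74% of those called neither and 7.98% of all, so the H3K4me3-rich share was near that of the uncalled anchors. The anchors with the highest rank differences were inside genes, far from their starts: 1 in SVIL, which encodes supervillin, with 818 and 6 read pairs, 1 in PRUNE2 with 674 and 10, and 3 in THADA with 691 and 6, 726 and 10, and 930 and 15. The 5 lowest lay 3769 to 8753 bp from the nearest coding start, among them 1 at 4020 bp from the start of ZNF132 (20 and 468 read pairs) and 1 at 3769 bp from that of GPR158 (13 and 413), where GPR158-AS1 starts.

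Contact was also summed by locus. In windows of 1 Mb (1694 with at least 1000 read pairs), 262 (15.5%) were H3K27ac-rich and 272 (16.1%) H3K4me3-rich, and they held a median of 4 and 9 coding starts, beside 8 in windows called neither. The window with the highest difference was chr2:43000001-44000000, with ZFP36L2, HAAO, THADA and PLEKHH2, at 5463 and 583 read pairs (83.5 points, log2 3.25). It was followed by chr14:38000001-39000000, the FOXA1 locus, at 3466 and 455 (75.6 points, log2 2.95), and by chr5:123000001-124000000, which has no coding start, at 2880 and 209.

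The lowest windows held 621 and 2140 read pairs (chr5:113000001-114000000, with 1 coding start, -54.0 points) and 937 and 3054 (chr12:132000001-133000000, with SFSWAP, DDX51, NOC4L and PUS1, -53.9 points). The window chr19:57000001-58000000 holds 30 coding starts, many of zinc finger genes, and had 1492 and 6984 read pairs (-51.0 points, log2 -2.21). Over whole chromosomes the log2 share ratio was lowest for chromosome 19 (-0.69) and chromosome 15 (-0.31), and highest for 13 (0.61), 21 (0.60) and 2 (0.44). At 0 m chromosome 19 was also lowest, at -0.86.

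The other times are separate libraries of the same loops and show how far the 16 h calls recur. Of the 1004 H3K27ac-rich promoters, 526 (52.4%) were called the same way in vehicle, 66.5% after 30 m, 46.1% after 4 h and 79.1% after 72 h. Of the 1757 H3K4me3-rich promoters, 995 (56.6%) had the same call in vehicle, 58.4% after 30 m, 39.2% after 4 h and 75.4% after 72 h. At all 5 times 318 (31.7%) and 470 (26.8%) were called, among them HGD, ACP3, FOLH1 and FOXA1 of the former and NOC4L, EAF1, TAF3 and ZNF350 of the latter. The sign of the difference at 0 m was that of 16 h for 989 and 1697. The 4 h share is the lowest, with 16 and 2 called the other way, beside 0 at the other times. At 4 h the promoter of GNPTG and TSR3 stood at 1.30 points, C8orf33 at -9.26 and ZNF671 at -9.63, while DDX51 stood at -43.5 and TAF3 at -75.0. The 4 h H3K4me3 library is the deepest, and the part of depth was not tested.

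**Figure D5:**
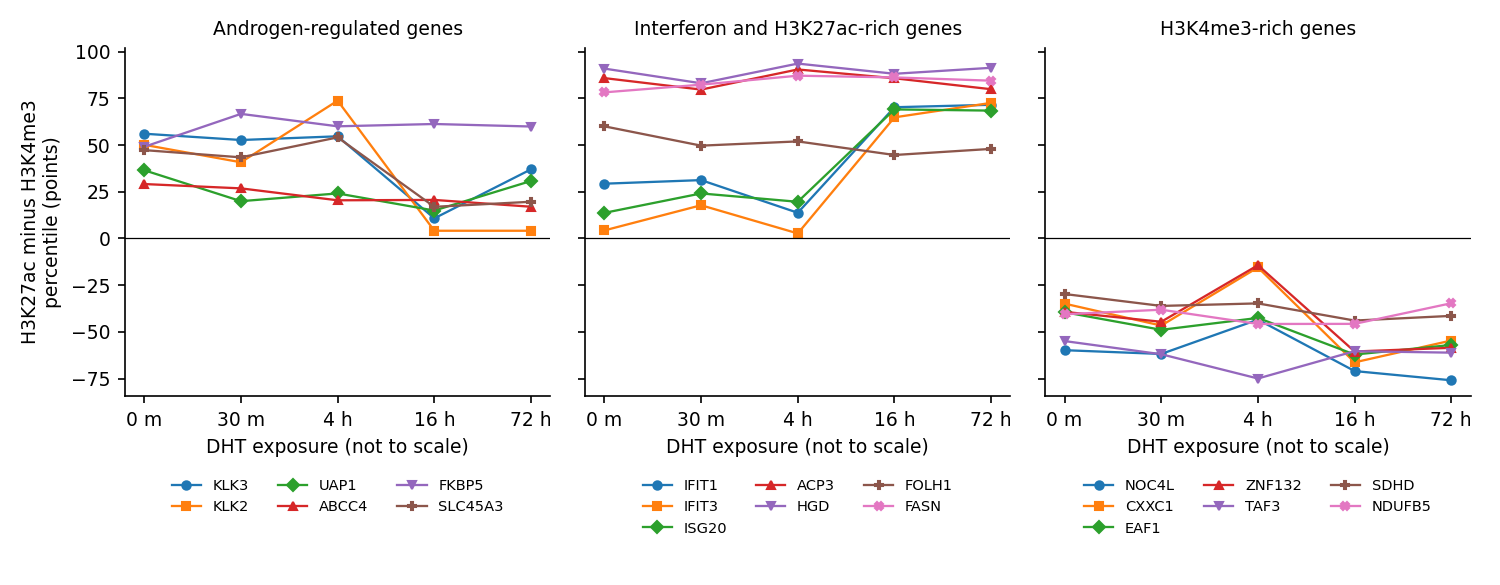
Rank difference (H3K27ac percentile minus H3K4me3 percentile, points, y axis) of named promoters over the 5 time points (x axis, not to scale) in panels of androgen-regulated, H3K27ac-rich and H3K4me3-rich genes, 1 deposited value per point. KLK3 goes from 56.1 points at 0 m to 10.8 at 16 h, and IFIT1 from 29.3 to 70.3.

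Between 0 m and 16 h, 606 promoters (5.49%) moved by at least 20 points towards H3K27ac and 517 (4.68%) towards H3K4me3. At KLK3 the difference was 56.1 points in vehicle, 52.7 after 30 m and 54.7 after 4 h, and came to 10.8 at 16 h and 37.01 at 72 h. Its H3K27ac read pairs at 0 m and 16 h were 486 and 1002 (share ratio log2 0.33, 0.17 to 0.49) and its H3K4me3 read pairs 176 and 768 (log2 1.45, 1.21 to 1.69). The narrowing at KLK3 therefore came with more contact in both marks and the larger ratio in H3K4me3; it was not recomputed with other choices of loops, to which the 16 h value is sensitive. With 1 H3K4me3 library at 16 h, time and library cannot be told apart.

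The same direction was seen at some other androgen-regulated promoters and not at all of them. SLC45A3, a prostate transporter gene known as prostein, had a ratio of log2 1.01 (0.71 to 1.32) in H3K4me3 and -0.02 in H3K27ac, and KLK2 1.82 in H3K4me3 and -0.29 (-0.64 to 0.06) in H3K27ac. The KLK2 values restate those of KLK3, since 140 of its 165 H3K27ac and 278 of its 317 H3K4me3 read pairs at 16 h lie in the loop to KLK3 described above. UAP1 (0.49 in H3K27ac, 0.71 in H3K4me3) and ABCC4 (0.45 and 0.60) had more of both. FKBP5 (0.61 and -0.32) had the larger ratio in H3K27ac. Over the 20 canonical targets the median log2 ratio was 0.20 in H3K27ac (15 above 0) and 0.48 in H3K4me3 (18 above 0), beside -0.09 and -0.01 over all promoters.

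Accordingly the canonical targets had a median rank difference of 32.6 points in vehicle and, in order of time in DHT, of 19.9, 18.9, 12.1 and 15.8 points, with 8, 6, 7, 3 and 6 called H3K27ac-rich, beside 693, 914, 756, 1004 and 946 of all 11039 promoters. The prostate markers went from 39.0 points and 8 calls at 0 m to 19.3 points and 5 calls at 16 h. These medians share libraries, and how far they would vary between libraries of 1 time cannot be read from them.

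Moves were ranked over the 2724 loci called at 0 m or 16 h with at least 100 read pairs at 0 m, which leaves out promoters with little contact in vehicle. Among these the largest move towards H3K27ac was at CTSD, the lysosomal protease cathepsin D, with 35 and 196 read pairs at 0 m and 259 and 282 at 16 h (63.9 points, from 2 loops). CTSD stood at -36.3 points at 0 m, -51.3 at 4 h and 27.5 at 16 h, and the 16 h value was not called and came to -3.12 points at the canonical start and -3.57 with a window of 7500 bp. Its H3K27ac share had a log2 ratio of 2.17 (1.66 to 2.72) and its H3K4me3 share -0.16 (-0.42 to 0.11). ARID1B, a BAF chromatin remodelling subunit, went from 89 and 58 to 416 and 62 read pairs (48.5 points), and PLAUR, the urokinase receptor, moved by 52.2 points and ULK1, the autophagy kinase, by 54.4. Towards H3K4me3, MANEA, a Golgi mannosidase, moved by -47.4 points and EPS8, an actin regulator, by -46.4 (127 and 216 to 81 and 439 read pairs at a promoter shared with STRAP). The 16 h calls of ULK1, PLAUR and EPS8 did not hold under both other definitions of the promoter.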

How the data were processed

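LNCaP H3K27ac and H3K4me3 HiChIP was used at 16 h of 10 nM DHT, with 0 m, 30 m, 4 h and 72 h for reference. Per the labels and the study's methods, the authors trimmed reads (Trim Galore 0.5.0), mapped unique pairs to hg19 (HiC-Pro 3.1.0, Bowtie2), called loops on 5 kb bins with FitHiChIP in reads merged over time points for each mark, and deposited 1 signal value per loop, time and mark: read pairs TMM-scaled among the times of a mark. Whether a value pools the 2 H3K27ac replicates is not given in the sources used here. Deposited anchors are the central 1 kb of each bin.

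Each value was a whole multiple of the smallest step of its library (100% of values within 1e-06), which gave back the read pairs. The 574817 deposited lines (H3K27ac loops 296326, H3K4me3 loops 278491) came to 505995 anchor pairs. Anchors overlapping 2500 bp on either side of a protein-coding start (Gencode release 44 lifted to GRCh37) by at least 1 bp were promoters, and contact was summed over a promoter's loops. Calls needed 20 percentile points and an exact 95% conditional binomial interval of the share ratio on 1 side of 0, with at least 100 read pairs for promoters, 20 for loops and 1000 for windows of 1 Mb. Intervals cover counting error only. With 1 value per mark and time, no test between marks was made. Intervals for a change between times compare a mark's shares in the same way, and medians over lists add 0.5 read pairs.

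Alternatives were another call rule, summary, loop length, minimum, loop set, promoter window, start and neighbour rule. Named genes were the 10 loci at each end of the ranking, up to 3 called at each end of each list, UAP1, KLK3, KLK2 and ABCC4, the 8 loops, 5 windows and 5 changes from 0 m (of 2724 loci called at either time with at least 100 read pairs at 0 m) at each end, with loci of the Y chromosome left out and some named items not reported here; EHF, GATA2, HOXB13, SLC45A3, the promoters whose sequence is printed, the anchors, and the genes of the time course were chosen after their values were seen. Members and lists were chosen with earlier results of these data known. The androgen response genes are the study's subset of a public hallmark set, and its comparison and nascent RNA genes were grouped on these cells. Columns of other per-sample values: 0. Scripts used Python 3.11.15, numpy 2.4.6, pandas 2.3.3, scipy 1.17.1 and matplotlib 3.10.9 and were tested on simulated data.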

Additional observations from a re-analysis of the deposited data

How the results depend on the processing

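No paired analysis was possible because each mark and time has 1 deposited value per loop, and for the same reason no replicate could be left out. Over 108 results and 1149 alternatives 681 stayed within their limits, 466 moved and 2 called values reversed: TMPRSS2, at -9.95 points with the canonical start, and H4C5, at -3.72 points with loops of 1 gene only; the cause was not tested. The 1004 H3K27ac-rich promoters became 440 with a 2-fold share ratio, 598 with a minimum of 500 read pairs, 547 with a 1000 bp window, 521 with loops of at least 20 kb, 612 with the H3K4me3 set only, 640 with loops in both sets and 1799 with the ratio centred on the median promoter. The 1757 H3K4me3-rich promoters became 5831 with a 2-fold share ratio, 809 with 30 points, 949 with a minimum of 1 read pair and 1018 with a 1000 bp window. The 22197 H3K27ac-rich loops became 8376 with loops of at least 20 kb, 9449 with a minimum of 50 read pairs and 4217 in both sets, and the 25127 H3K4me3-rich loops 38485 with a minimum of 10 read pairs, 10538 with 50 and 7878 in both sets. Fewer promoters or loops are ranked under the higher minimums, the smaller window, the longer loops and the single sets. The median of the androgen response genes stayed above 0, at 1.49 to 8.68 points. KLK3 was at 65.2 points with the H3K27ac set only and 28.3 with loops of 1 gene only, against 1.09 with average contact, and KLK2, not called, ranged from -7.12 to 67.1 points, changing sign. The medians of the prostate markers ranged from 1.85 to 41.3 points, and those of the cell cycle, secretory, highly expressed and 72 h nascent RNA lists changed sign in some alternatives. Of 70 called promoters named or examined, 26 came under 20 points in at least 1 alternative, among them TMEFF2 (-3.37 with average contact), SREBF2 (6.94) and ZNF787 (9.77) with the strongest loop only, and EAF2 (-12.5), HMGCS1 (-14.5), MVK (-15.6) and RPL14 (-7.11) with loops in both sets. The canonical start, the 7500 bp window and the centred ratio were chosen after seeing the data. The median loop holds 3 read pairs in each mark, which limits what single loops show.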

Other observations

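Interferon-stimulated genes recurred among promoters that were H3K27ac-rich at 16 h. A list of 44 such genes was written after these values were seen, so its counts are a description with no test. Of the 27 with enough contact, 10 were H3K27ac-rich at 16 h (37.04%, against 9.1% of all promoters) and 0 H3K4me3-rich. Members on the other side, not called, included PSMB8 and PSMB9 (-19.8 points each) and IFI35 (-11.6 points). IFIT1, which binds viral RNA, held 429 H3K27ac and 131 H3K4me3 read pairs (70.3 points), its neighbour IFIT3 233 and 29 (64.8 points), and ISG20, an exonuclease, 263 and 32 in a single loop (69.1 points, but 5.23 with average contact). MX1, an antiviral GTPase, held 327 and 116 read pairs (64.7 points, too few pairs at its canonical start), IFI44 223 and 59 (61.3 points), and OAS1, the oligoadenylate synthetase, 156 and 23 (48.9 points). The transcription factor IRF1 held 140 and 48 (43.3 points, not called at its canonical start), and ISG15, the ubiquitin-like modifier, 1031 and 500 (29.2 points, but 14.4 with average contact).

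In vehicle 3 of the 27 were H3K27ac-rich, followed in order of time in DHT by 6, 2, 10 and 10 (beside 693, 914, 756, 1004 and 946 of all 11039 promoters), and the median rank difference was 7.49, 10.9, 8.09, 22.4 and 29.1 points. IFIT1 stood at 29.3 points at 0 m and IFIT3 at 4.31. Between 0 m and 16 h the share of H3K27ac contact at IFIT1 had a log2 ratio of 1.64 (1.30 to 1.99) and that of H3K4me3 0.33 (-0.11 to 0.78). The H3K27ac ratio was 2.45 (1.86 to 3.09) at IFIT3 and 1.93 (1.46 to 2.44) at ISG20. Whether this belongs to DHT, to time in culture or to the libraries cannot be told apart with 1 value per mark and time.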
